A study of Mus musculus with 46 samples.

Results

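The genes described here are 9 markers of striatal medium spiny neurons (Drd1, Drd2, Adora2a, Ppp1r1b, Gpr6, Rgs9, Pde10a, Adcy5 and Rasd2), measured in tissue of the BNST, the bed nucleus that follows the stria terminalis and borders the striatum. Members were all probesets, that is, sets of array oligonucleotides, to which the platform annotation gives exactly 1 of these symbols. This rule gave 19 of the 45037 probesets on the array and 8 of 18193 named genes, with 2 probesets for Drd1, 1 each for Drd2, Ppp1r1b and Gpr6, 3 for Rgs9, 5 for Pde10a, 4 for Adcy5 and 2 for Rasd2. No probeset was matched to Adora2a, and this gene was not analysed here. Levels below are log2 intensities of the representative probeset of a gene, the one with the highest mean, unless another is named.

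Medium spiny neurons are the GABAergic projection neurons that make up most of the striatum. Those of the direct pathway carry the D1 dopamine receptor, which raises cAMP, and those of the indirect pathway carry the D2 receptor, which lowers it. Most of the other markers here act on this cAMP signal. Because the markers are dense in striatum, their level in a dissected neighbouring nucleus is taken here as a possible gauge of striatal tissue. Cells of the BNST itself also express some of them, so no marker belongs to the striatum alone.

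Adult male C57BL/6J mice received chronic intermittent ethanol vapor (CIE) or air (Ctrl) in 4 cycles, spending 16 hours a day in inhalation chambers for 4 days in each and then 7 days in abstinence. CIE mice were given ethanol at 1.6 g/kg and Ctrl mice saline before each cycle, and all mice, Ctrl included, were given pyrazole at 1 mmol/kg, which slows ethanol breakdown. Mice were killed at 0 h, 8 h, 72 h or 7 d from the end of exposure, with 6 mice in each group except CIE at 7 d, which held 4, for 24 Ctrl and 22 CIE arrays with 1 mouse each. Array medians lay between 6.78 and 6.83 and any pair of arrays correlated at 0.981 to 0.998, and the number of mice limits the precision of each value. Of 18 genes listed for the BNST 16 were measured, and none of them was at the low end of the scale in all mice: Sst ranged from 11.70 to 12.40, Crh from 9.28 to 10.85 and Cartpt from 9.16 to 10.94.

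Promoter sequence is shown for the 3 receptors, whose levels varied together between mice, so that the start regions of genes of the direct and the indirect pathway can be read side by side. Each window holds the 250 bases before a RefSeq transcription start (build GRCm38.p6, written along the gene's strand), at chr13:54054781-54055030 on the minus strand for Drd1, at chr9:49340153-49340402 on the plus strand for Drd2 and at chr10:41072291-41072540 on the minus strand for Gpr6. Capitals mark matches, on either strand, to a GC box (GGGCGG) in Drd1 and Drd2, and to a cAMP response element (TGACGTCA) and a CCAAT box (CCAAT) in Gpr6.
Drd1: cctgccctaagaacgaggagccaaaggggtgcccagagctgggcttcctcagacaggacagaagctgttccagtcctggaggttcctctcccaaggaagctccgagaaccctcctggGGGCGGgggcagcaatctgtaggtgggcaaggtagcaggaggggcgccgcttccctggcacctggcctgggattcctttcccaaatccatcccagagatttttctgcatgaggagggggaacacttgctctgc
Drd2: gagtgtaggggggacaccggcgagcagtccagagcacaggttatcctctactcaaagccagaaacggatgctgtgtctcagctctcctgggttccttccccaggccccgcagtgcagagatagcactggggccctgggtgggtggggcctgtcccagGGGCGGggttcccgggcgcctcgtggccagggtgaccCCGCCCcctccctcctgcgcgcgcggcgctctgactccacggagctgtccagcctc
Gpr6: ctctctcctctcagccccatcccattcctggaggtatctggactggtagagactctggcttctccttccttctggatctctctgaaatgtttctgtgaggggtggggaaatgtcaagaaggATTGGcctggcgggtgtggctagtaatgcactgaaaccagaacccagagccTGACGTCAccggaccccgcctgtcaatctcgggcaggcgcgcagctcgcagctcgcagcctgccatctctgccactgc
A GC box stood in 5 of the 9 windows of members and in 32.7% of all 32851 RefSeq windows of this length, a cAMP response element in 1 and in 1.55%, a CCAAT box in 3 and in 33.8%, and a TATA box (TATAAA) in 1 and in 12.4%. No match overlapped another. The 9 windows belong to 7 genes, since Drd1 and Pde10a have a second start, and their GC content ran from 56% to 78%, against a median of 52.4% over all windows. The second Drd1 window held none of the 4 motifs, and a match in these letters is a description, not a site known to be used.

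Markers of the dopamine receptors varied widely between mice of the same group. Drd1, the D1 receptor of direct pathway neurons, lay between 9.49 and 10.55 (median 10.17) in Ctrl mice and between 10.03 and 11.30 (median 10.41) in CIE mice at 0 h. At 8 h it lay between 9.23 and 10.89 (median 10.13) in Ctrl mice and between 9.60 and 11.21 (median 10.22) in CIE mice. At 72 h the range was 9.70 to 10.71 (median 10.44) in Ctrl mice and 9.75 to 10.72 (median 10.08) in CIE mice. The groups overlapped at each of these times. At 7 d Drd1 ranged from 9.43 to 11.62 (median 10.68) in Ctrl mice and was 11.52, 10.79, 10.60 and 10.84 in the 4 CIE mice. The 4 CIE mice thus lay inside the range of the Ctrl mice, which spanned 4.57-fold. The CIE minus Ctrl difference in Drd1 was 0.46 on the log2 scale at 0 h (SE 0.29, limma adjusted p = 0.473). It was 0.13 at 8 h (SE 0.29), -0.21 at 72 h (SE 0.29) and 0.21 at 7 d (SE 0.32). The residual SD of 0.52 describes single mice of a group, and the SE describes the difference of means.

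Drd2, the D2 receptor of indirect pathway neurons, spread less than Drd1. At 0 h it ranged from 7.29 to 7.97 (median 7.75) in Ctrl mice and from 7.59 to 8.65 (median 7.98) in CIE mice. At 8 h the range was 7.33 to 8.64 (median 7.95) in Ctrl mice and 7.29 to 8.40 (median 7.87) in CIE mice, and at 72 h it was 7.80 to 8.49 (median 7.88) and 7.51 to 8.05 (median 7.84). At 7 d Drd2 ran from 7.10 to 8.82 (median 7.99) in Ctrl mice and was 8.76, 7.92, 7.88 and 8.48 in the CIE mice. Ctrl mice at 7 d held both the lowest and the highest value of the series, and CIE and Ctrl overlapped at each time. The differences were 0.33 (SE 0.22, limma adjusted p = 0.514), -0.13, -0.21 and 0.20 in order of time.

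Gpr6, an orphan receptor enriched in indirect pathway neurons that raises cAMP without a known ligand, had the widest spread of the members. It ranged from 7.91 to 9.24 (median 8.98) in Ctrl mice and from 8.70 to 10.39 (median 9.24) in CIE mice at 0 h. At 8 h it ranged from 7.50 to 9.68 (median 9.13) and from 7.81 to 9.88 (median 8.96), and at 72 h from 8.71 to 9.67 (median 9.11) and from 8.66 to 9.41 (median 8.86), Ctrl mice first. At 7 d the Ctrl mice ranged from 7.65 to 10.47 (median 9.30), a 7.06-fold span within 1 group, and the CIE mice were at 10.55, 9.40, 9.19 and 9.50. The highest value over all 46 mice was in a CIE mouse and the lowest in a Ctrl mouse, 8.24-fold apart, and the groups overlapped at every time. At 0 h the CIE minus Ctrl difference was 0.60 (SE 0.36, 95% interval -0.13 to 1.32, limma adjusted p = 0.438), and the later differences were -0.025, -0.23 and 0.31.

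**Figure D1:**
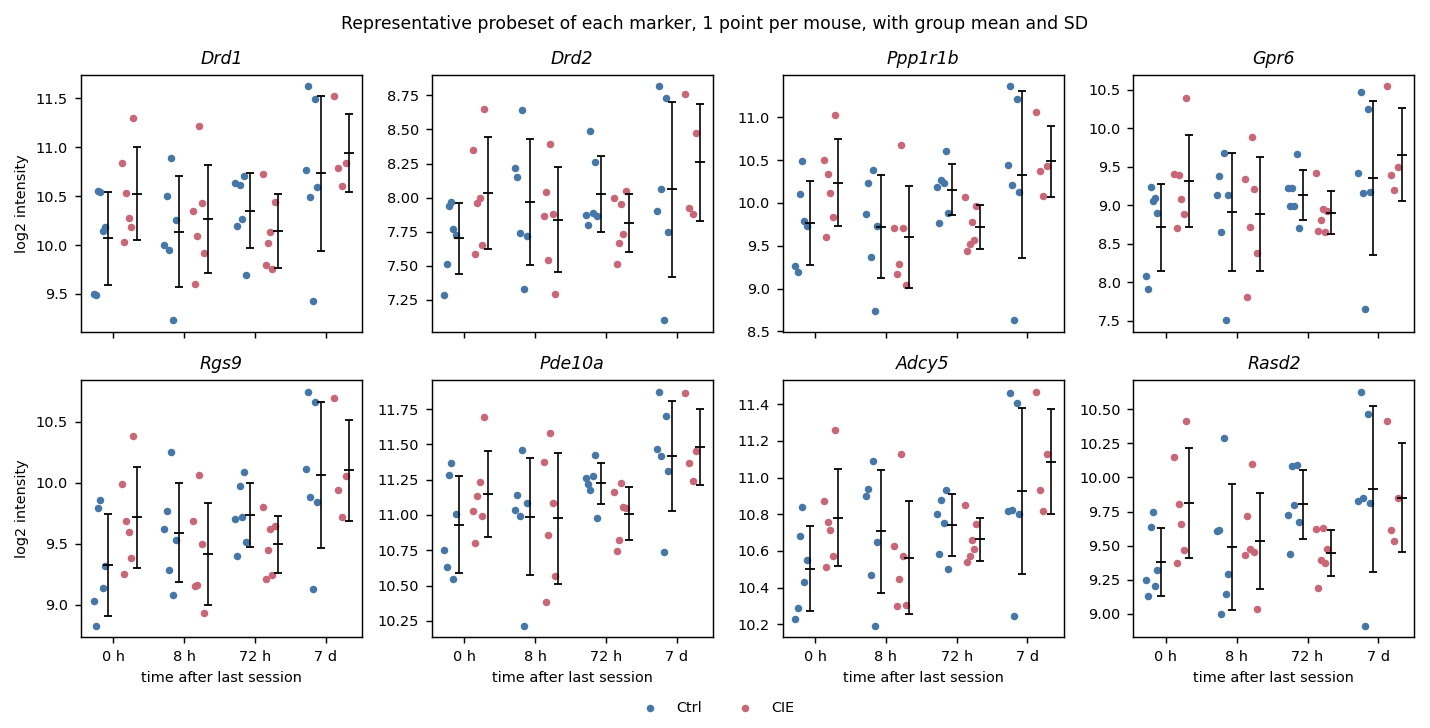
Log2 intensity of the representative probeset of each of the 8 measured markers (vertical axis, with its own range for each gene) against time after the last session, with 1 point per mouse in blue for Ctrl and red for CIE. Black bars show the group mean and SD (6 mice, 4 for CIE at 7 d), and Ctrl and CIE points overlap at each time, with the longest bars for Ctrl at 7 d in each gene but Pde10a, where those at 8 h are longer.

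Ppp1r1b encodes DARPP-32, which dopamine acting through protein kinase A turns into an inhibitor of a protein phosphatase. Its level was 9.19 to 10.48 (median 9.76) in Ctrl mice and 9.60 to 11.03 (median 10.23) in CIE mice at 0 h. It was 8.74 to 10.38 (median 9.80) and 9.05 to 10.67 (median 9.49) at 8 h, and 9.76 to 10.61 (median 10.21) and 9.44 to 10.07 (median 9.67) at 72 h, Ctrl mice first. The CIE values lay toward the low end at 72 h, but the highest CIE mice were above the lowest Ctrl mice. At 7 d Ctrl mice ran from 8.63 to 11.36 (median 10.33) and the CIE mice were at 11.06, 10.37, 10.08 and 10.43. CIE minus Ctrl was 0.47 at 0 h (SE 0.31, limma adjusted p = 0.499) and -0.43 at 72 h (SE 0.31, adjusted p = 0.66), the largest negative difference among the 8 representative probesets at that time, with -0.12 at 8 h and 0.16 at 7 d.

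Rasd2 encodes Rhes, a small GTP-binding protein of the striatum. It ranged from 9.13 to 9.74 (median 9.28) in Ctrl mice and from 9.37 to 10.41 (median 9.73) in CIE mice at 0 h, with a CIE minus Ctrl difference of 0.43 (SE 0.21, 95% interval 0.0042 to 0.86, limma adjusted p = 0.296). The groups overlapped, although all 6 CIE mice were above the Ctrl median. At 72 h the order was turned, with 9.44 to 10.09 (median 9.76) in Ctrl mice and 9.19 to 9.63 (median 9.43) in CIE mice, a difference of -0.35 (SE 0.21, limma adjusted p = 0.537). At 8 h the medians were 9.45 in Ctrl and 9.47 in CIE mice, and at 7 d 9.84 and 9.73.

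Rgs9, which speeds the switching off of G proteins under dopamine receptors, Adcy5, the main adenylyl cyclase of medium spiny neurons, and Pde10a, the phosphodiesterase that breaks down their cAMP and cGMP, are the other signalling proteins of the list. Over all mice Rgs9 ranged from 8.83 to 10.75, Adcy5 from 10.19 to 11.47 and Pde10a from 10.22 to 11.87. Their CIE minus Ctrl differences at 0 h were 0.39 (SE 0.23), 0.28 (SE 0.16) and 0.22 (SE 0.19), with limma adjusted p values of 0.413, 0.403 and 0.645, and at 72 h they were -0.24, -0.078 and -0.21. No pair of CIE and Ctrl groups was free of overlap for any of the 3 genes.

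No filter on low values was applied, so all 19 member probesets were tested. Of these, 0 were called at 0 h (adjusted p of 0.01 or less in limma, the study's threshold), where 2.4% of all probesets were called. At 8 h 0 were called, against 0.557% of all probesets, at 72 h 0 against 0.433%, and at 7 d 0 against 0%. An unadjusted p under 0.05 was found for 1 member probeset at 0 h (the representative one of Rasd2), 0 at 8 h, 1 at 72 h (Pde10a 1419389_at) and 0 at 7 d, while 16.5%, 10.5%, 12.6% and 4.94% of all probesets had one. With 19 probesets and shares of called probesets this low, the count of 0 does not set the members apart. The groups did not overlap for 0 member probesets at each time, against 2.5%, 1.1%, 2.9% and 1.12% of all probesets.

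The signs of the differences were shared by the members at 0 h and at 72 h. At 0 h the 8 representative probesets differed by 0.22 to 0.60, all higher in CIE mice, with a median of 0.41 beside a median over all genes of 0.00090. At 8 h their median was -0.074 (2 of 8 above 0), at 72 h -0.22 (0 of 8 above 0) and at 7 d 0.16 (7 of 8 above 0), beside -0.0082, -0.0036 and 0.014 over all genes. Quantile normalization tends to hold the median over all genes near 0, so it does not gauge how unusual the member medians are. Without CIE 0 h replicate 67, the highest mouse of its group, the member median at 0 h was 0.28. Without this mouse Pde10a was at 0.11 and Gpr6 at 0.38. Because the members also deviated together from mouse to mouse, their shared sign is not 8 separate observations. In bulk tissue, fewer medium spiny neurons and less of these RNAs per neuron cannot be told apart. In the F test over the 4 CIE effects 0 member probesets were called (2.84% of all probesets, lowest adjusted p of a member 0.207), and in that of a change of the CIE effect between times 0 were called (1.04% of all, lowest 0.284), both times lowest for Pde10a probeset 1419389_at.

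**Figure D2:**
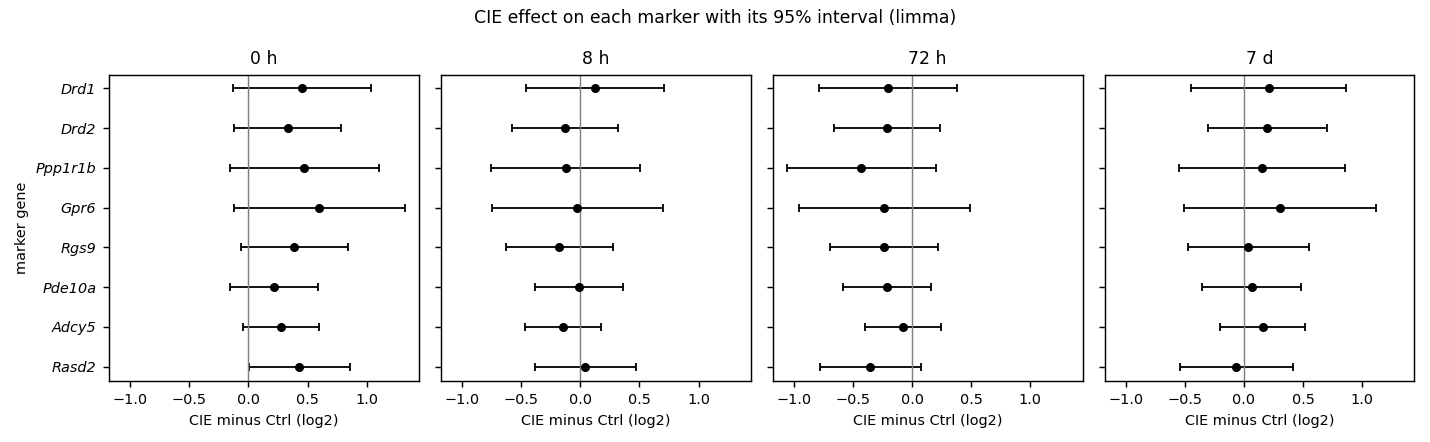
CIE minus Ctrl difference on the log2 scale (horizontal axis) for the representative probeset of each marker (rows) at each time after the last session, as points with 95% intervals from limma. All 8 points lie above 0 at 0 h and below 0 at 72 h, and every interval includes 0 except that of Rasd2 at 0 h, which starts at 0.0042.

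Group means of the members followed a similar order. The highest mean was that of CIE mice at 7 d for 7 of the 8 genes and of Ctrl mice at 7 d for Rasd2, and the lowest was that of Ctrl mice at 0 h for 7 genes and of CIE mice at 8 h for Ppp1r1b. For Drd1 the means fell from 10.94 in CIE mice at 7 d through 10.73 in Ctrl mice at 7 d and 10.52 in CIE mice at 0 h to 10.07 in Ctrl mice at 0 h. The largest step between neighbours in that order was 0.21 for Drd1 and 0.39 for Ppp1r1b, and 0 steps of any member exceeded the residual SD between single mice. The span from the highest to the lowest mean did exceed that SD for each member, for example 0.87 against 0.52 for Drd1 and 0.95 against 0.65 for Gpr6. The steps are a description, since sorting 8 means cuts their span into small steps. Neighbours in the order were not tested against each other, apart from the comparisons at each time.

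Differences between times within a treatment were called only for Pde10a probesets 1419389_at and 1419390_at. Over the 4 Ctrl groups 2 of the 19 member probesets were called, beside 10.9% of all probesets, and over the CIE groups 1, beside 7.76%. With 19 probesets, counts this near those shares do not set the members apart. The representative Pde10a probeset, 1458499_at and 1432490_a_at were not called (adjusted p of 0.129, 0.0811 and 0.304 in the F test over Ctrl times). An unadjusted p under 0.05 was found for 9 member probesets over the Ctrl groups, beside 35.7% of all, and for 7 over the CIE groups, beside 27.4%. Pde10a probeset 1419389_at lay at 7.81 to 8.71 (median 8.28) in Ctrl mice at 0 h, 7.86 to 8.16 (median 7.95) at 8 h, 8.09 to 9.03 (median 8.34) at 72 h and 8.55 to 9.65 (median 9.10) at 7 d. Ctrl mice at 7 d were higher than at 0 h by 0.78 (SE 0.16, limma adjusted p = 0.00164), with some overlap, and all 6 were above all 6 Ctrl mice of 8 h. In CIE mice the same probeset lay at 8.16 to 8.90 (median 8.46), 7.80 to 8.52 (median 7.95), 7.77 to 8.33 (median 8.02) and 8.41 to 9.16 (median 8.60) in order of time. The F test over times gave an adjusted p of 5.95e-05 in Ctrl and 0.00959 in CIE mice. Probeset 1419390_at of Pde10a was called in Ctrl mice only (adjusted p = 0.0016, and 0.0484 in CIE mice), but the F test of a change of the CIE effect between times, which compares the time courses of the treatments, gave it an adjusted p of 0.76. In Ctrl mice 1 call was left without replicate 36 of 7 d, and in CIE mice the 1 call was lost when any 1 of 17 of the 22 mice was left out. The Ctrl mean of 1419390_at at 7 d minus that at 0 h was 0.74 (SE 0.20, limma adjusted p = 0.0198, above the threshold). The same contrast gave 0.74 for Rgs9 (SE 0.23, limma adjusted p = 0.0405) and 0.66 for Drd1 (SE 0.29, limma adjusted p = 0.162).

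The 5 probesets of Pde10a had CIE minus Ctrl differences of both signs at 7 d. They were 0.066 (SE 0.21) for the representative one, 0.13 (SE 0.28) for 1458499_at, -0.36 (SE 0.18) for 1419389_at, -0.077 (SE 0.23) for 1432490_a_at and -0.32 (SE 0.22) for 1419390_at, and limma gave each an adjusted p of 1. The differences between probesets were not tested. At 72 h probeset 1419389_at had -0.39 (SE 0.16, adjusted p = 0.247) and the representative one -0.21. The position of these probesets on the transcripts was not used here.

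The spread between mice of a group was the main feature of the members. Residual SDs were 0.65 for Gpr6, 0.57 for Ppp1r1b, 0.52 for Drd1, 0.41 for Rgs9, 0.40 for Drd2, 0.38 for Rasd2, 0.33 for Pde10a and 0.29 for Adcy5, where the median over all probesets was 0.135. These 8 SDs stood at the 95.7th to the 99.9th percentile of all probesets, and at the 97.5th to the 99.9th among probesets of similar mean level (within 0.5 on the log2 scale). Over all times together, the SD was higher among Ctrl than among CIE mice for all 8 genes. It was, for example, 0.64 against 0.47 for Ppp1r1b and 0.34 against 0.33 for Pde10a. This did not hold at each time, as Drd2 at 0 h had an SD of 0.26 in Ctrl and 0.41 in CIE mice. For Ppp1r1b the SDs were 0.49 and 0.51 at 0 h, and 0.98 and 0.41 at 7 d, where CIE had 4 mice. Because the members deviated together, the 8 genes are not separate observations, and the difference was not tested.

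Most mice were high or low in all members together. In 27 of 46 mice all 8 genes lay on the same side of their group means, above in 12 mice and below in 15. The mean deviation over the 8 genes was lowest in Ctrl 7 d replicate 62 (-1.12) and Ctrl 8 h replicate 66 (-0.76), and highest in Ctrl 7 d replicate 36 (0.77), CIE 8 h replicate 40 (0.75) and CIE 0 h replicate 67 (0.69). The mouse with the highest mean and the mouse with the lowest thus came from the same group, Ctrl at 7 d.

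**Figure D3:**
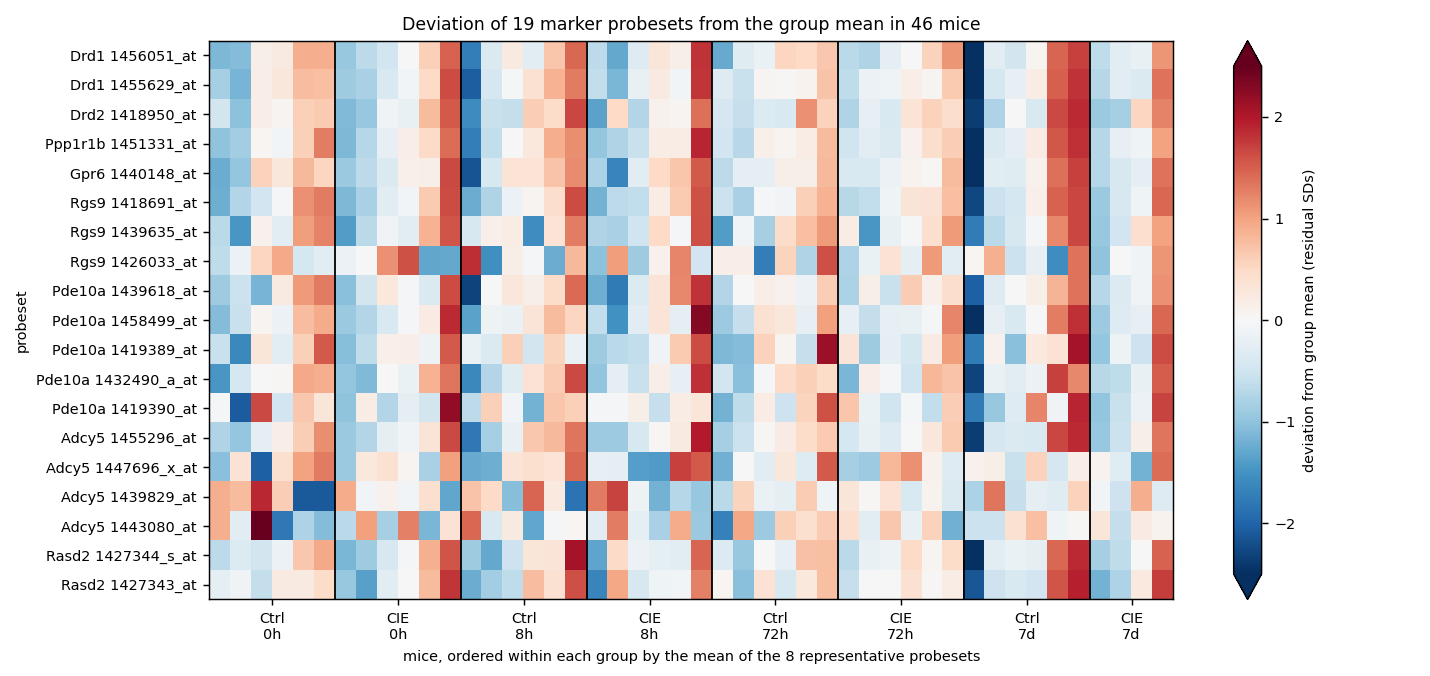
Deviation of each of the 19 member probesets (rows) from its group mean in residual SDs (color, limits of the scale shown with arrows where values pass them) for 46 mice (columns), ordered within each of the 8 groups by the mean of the representative probesets. Columns are mostly of 1 color from top to bottom, except at Rgs9 1426033_at, Adcy5 1439829_at and Adcy5 1443080_at.

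Drd1 and Drd2, which mark the direct and the indirect pathway, deviated together. Over 46 mice their deviations from the group means had a Pearson r of 0.85 and a Spearman rho of 0.80 (both p = 1e-05, two-sided permutation test with 100000 resamples, the smallest p these allow). Within Ctrl mice r was 0.89 and rho 0.82 (24 mice, both permutation p = 1e-05), and within CIE mice r was 0.78 and rho 0.76 (22 mice, permutation p = 5e-05 and 6e-05). Without the 2 mice farthest from the median of Drd1, Ctrl 7 d replicate 62 and CIE 8 h replicate 40, r was 0.81 and rho 0.78. This was the only relation of this kind that was tested, and the pair was chosen after the values were seen. Over the 28 pairs of the 8 genes, r ran from 0.75 (Pde10a with Rasd2) to 0.97 (Ppp1r1b with Adcy5), with a median of 0.91, and Drd1 with Gpr6 gave 0.96. All pairs share the same 46 arrays and their normalization.

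**Figure D4:**
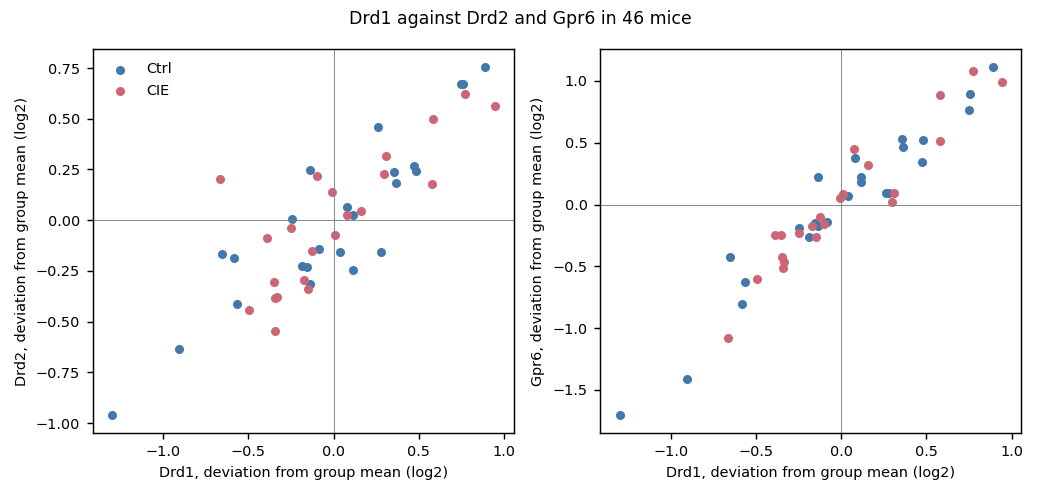
Deviation from the group mean on the log2 scale of Drd2 (left) and Gpr6 (right) against that of Drd1, 1 point per mouse, Ctrl in blue and CIE in red. Points of both treatments lie along a rising diagonal, with r of 0.85 for Drd2 and 0.96 for Gpr6 over 46 mice.

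Not every probeset of a member followed. The r of a representative probeset with the mean of the other members ran from 0.88 (Pde10a) to 0.98 (Adcy5). It was -0.027 for Rgs9 1426033_at, -0.42 for Adcy5 1439829_at and -0.15 for Adcy5 1443080_at, 3 probesets whose mean levels of 4.51, 4.84 and 3.85 were below 5 and whose residual SDs of 0.13, 0.14 and 0.12 were near the median of all probesets. Adcy5 1447696_x_at, at a mean of 9.38, had an r of 0.50 and a residual SD of 0.17. The second Drd1 probeset and the second Rasd2 probeset followed the first of each gene, with r of 0.95 for both pairs. Pde10a 1419389_at and 1419390_at, which were called between times, had r of 0.76 and 0.63 with the mean of the other members. Pde10a 1458499_at and 1432490_a_at had 0.93 and 0.95.

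Genes outside the 9 markers varied with them. The 10 genes with the highest r with the mean of the 8 members over 46 mice were Gng7, Serpina9, Arpp21, Penk, Arpp19, Rem2, Wnt2, Camk4, Tesc and Rarb, from 0.98 for Gng7 to 0.97 for Rarb. The 5 with the lowest were Gprin2 (-0.89), Tnik (-0.89), Slc39a6 (-0.87), Emc9 (-0.85) and Pank1 (-0.84). Over all genes the median r was -0.036. In all, 952 probesets had an r of 0.7 or more and 216 of -0.7 or less, 2.59% of the table. The absolute r of the member mean with the principal components of the residuals was 0.0636 for the first (20.7% of their variance). It was 0.48 for the second (12.7%) and 0.803 for the third (10.1%).

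Of 24 other genes listed for medium spiny neurons, 22 were measured and 20 had an r of 0.7 or more with the member mean, with a median of 0.91. Penk, the enkephalin precursor of indirect pathway neurons, had 0.97, and Tac1 and Pdyn, the peptide precursors of direct pathway neurons, had 0.86 and 0.94. The exceptions were Chrm4, at 0.38 with levels between 4.67 and 5.50, and Drd3, at 0.18 with levels between 3.31 and 3.91. The median difference of this list was 0.21 at 0 h, -0.028 at 8 h, -0.035 at 72 h and 0.093 at 7 d, and 0 of its genes were called at any time (percent of all probesets called as given above).

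Of 29 listed partners in dopamine and cAMP signalling, 28 were measured, and their median r was 0.19. Of these, 6 had an r of 0.7 or more: Ppp3ca, a calcineurin subunit (0.91), the phosphodiesterase Pde2a (0.87), Adcy9 (0.84), Prkar2b, a regulatory subunit of protein kinase A (0.82), Cdk5r1 (0.78) and Ppp1ca, a catalytic subunit of the phosphatase that DARPP-32 inhibits (0.75). Adcy8 had -0.73. Prkacb, a catalytic subunit of protein kinase A, was the 1 gene of this list called, at 72 h, beside 0.433% of all probesets. It was higher in CIE mice by 0.28 (SE 0.056, limma adjusted p = 0.00507), and its r with the member mean was 0.19.

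Marker lists for other brain regions, the choroid plexus, astrocytes and oligodendrocytes did not rise and fall with the members as a whole. Some of their genes were low in all mice, such as the cortical Neurod6 (3.72 to 4.99) and Aqp1 of the choroid plexus (4.14 to 4.85). For such genes an r near 0 cannot show that the tissue did not vary with the members. All 12 hypothalamic and preoptic genes had a negative r, with a median of -0.40, including -0.62 for Hcrt, the orexin precursor, which ranged from 8.20 to 14.36 between mice, and -0.61 for Pmch, the melanin-concentrating hormone precursor, which ranged from 10.24 to 14.38. The mean level of this list ran from 8.70 to 10.24 in Ctrl mice at 7 d and from 9.39 to 9.86 at 0 h. Of its 12 genes 0 were called at any time (percent of all probesets called as given above). Astrocyte genes had a median r of -0.46 (6 genes), thalamic genes 0.034 (6) and septal genes -0.098 (5). Cortical excitatory neuron genes had -0.099 (8), oligodendrocyte genes 0.055 (7) and choroid plexus genes -0.017 (6). Of the choroid plexus genes, 3 had an r above 0, with 0.86 for Clic6. Ttr, which ranged from 8.03 to 11.16 between mice, had -0.48. Kl was the 1 gene of the choroid plexus list called at 0 h, beside 2.4% of all probesets. It was higher in CIE mice by 0.42 (SE 0.083, limma adjusted p = 0.000802), with an r of 0.29 with the member mean.

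The 16 measured genes of the BNST list had a median r of -0.034, with 1 gene, Npy, at 0.90. Of these genes 2 were called at 0 h, beside 2.4% of all probesets. Oprk1 and Npy2r were higher in CIE mice by 0.45 and 0.32 (limma adjusted p = 0.000217 and 0.00902), with r of 0.44 and -0.17 with the member mean. At 72 h 1 gene of the list was called, beside 0.433% of all probesets: Pnoc, higher by 0.86 (limma adjusted p = 0.00906, r -0.33). Among basal forebrain cholinergic and pallidal genes, 3 of 7 were called lower in CIE mice at 72 h, beside 0.433% of all probesets called. Gbx1 differed by -0.91, Lhx8 by -0.82 and Slc5a7 by -0.59 (limma adjusted p = 0.00301, 0.00505 and 0.00879), with r of -0.20, -0.21 and 0.13. The part of differences in dissected tissue in these results was not tested.

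**Figure D5:**
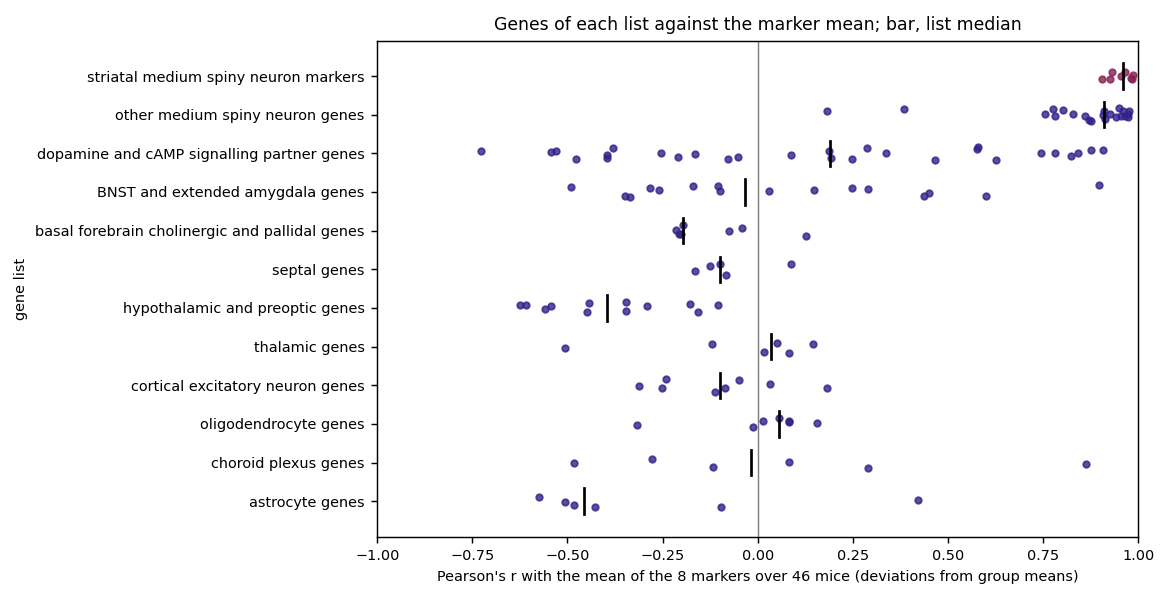
Pearson's r (horizontal axis) of each gene of 12 lists (rows) with the mean of the 8 measured markers, over the deviations of 46 mice from their group means, with a bar at each list's median. The markers themselves, at the top, are part of the mean they are set against, the other medium spiny neuron genes have a median of 0.91, and all 12 hypothalamic and preoptic genes lie below 0.

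The level of the members was also set against the whole table, in which 2.59% of probesets had an absolute r of 0.7 or more with the member mean. The mean of the 8 standardized levels differed between CIE and Ctrl mice by 0.893 residual SDs at 0 h, -0.149 at 8 h, -0.557 at 72 h and 0.289 at 7 d. Of the 1079 probesets called at 0 h, 27 were among these, which is 2.5% of the called, near the share in the table, and 2.31% of the 1168 such probesets. At 8 h this held for 1 of 251 called probesets (0.398%), and at 72 h for 0 of 195, below that share. These shares cannot show whether calls were related to the member level, since a large spread within groups makes a call less likely. The genes named above with the highest r had residual SDs from 0.25 (Penk) to 0.59 (Serpina9), beside a median of 0.135 over all probesets. Those with the lowest r had 0.10 (Tnik) to 0.19 (Gprin2). The share among probesets of similar spread was not tested. With the member mean as a covariate, an alternative chosen after the data were seen, 1068 probesets were called at 0 h, 863 of them among the 1079, and 301 at 8 h, which included all 251. At 72 h 724 were called, which included all 195, and at 7 d 0 were called with or without it. The covariate came from the same arrays and itself differed between treatments, so such a fit can add or remove calls. These counts therefore do not show which calls are effects of CIE.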

How the data were processed

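RNA of the BNST was hybridized to Affymetrix mouse arrays, 1 mouse per array. The deposited values are log2 probeset intensities. The authors corrected background and normalized by RMA with quantile normalization within hybridization batches, quantile normalized all arrays together and removed the hybridization batch with ComBat. Tool versions and the batch of each array are not given in the sources used here. Batch was therefore not a term of any fit, and within-batch values could not be computed. Values from which a batch has been removed can understate the spread that a test should carry, and quantile normalization would hide a common shift of most genes. The table had 45037 probesets, 0 missing values, 0 identical arrays and 0 columns of other samples. No detection call was used.

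Gene symbols came from the platform annotation (34945 probesets with 1 symbol, 932 with several, 9160 with none). Groups follow the labels' treatment and time. The test was limma (version 3.58.1, R 4.3.3) with 1 mean for each of the 8 groups over all 46 arrays and eBayes moderation, which left 38 residual and added 3.94 prior degrees of freedom, two-sided, with Benjamini-Hochberg adjustment over all probesets within each comparison and a threshold of 0.01. The code was tested on simulated data. Figures were drawn with matplotlib 3.10.9. Labels name separate mice, so p-values measure the spread between animals. Correlations used deviations from group means.

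The members and the 12 gene lists were chosen with earlier results of these data known. Named outside the members were the 10 genes with the highest and the 5 with the lowest r with the member mean, and list genes that were called or are defining markers. Genes named in lists beyond these were chosen after their values were seen. Examples are the signalling partners with an r of 0.7 or more, Chrm4, Drd3, Clic6, Ttr, Neurod6, Aqp1, Npy, Tac1 and Pdyn. Adora2a was not analysed here, so a planned correlation of it with Drd1 was replaced by that of Drd2 with Drd1. Promoter windows came from RefSeq (GRCm38.p6), where 7 of the 9 genes had one. The alternatives were fits to the 2 groups compared, array weights, aligned array medians, a mean log2 value of at least 5, a trended robust variance prior, the mean of all probesets of a gene, a threshold of 0.05 and leaving out each mouse.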

Additional observations from a re-analysis of the deposited data

Results flagged for a closer look

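Of 152 sets of a member probeset in a group, 2 held a mouse that stood apart from the rest of its group by Dixon's 95% criterion, which chance exceeds in about 1 of 20 sets. Both belong to Pde10a. Probeset 1458499_at had a value of 9.193 in CIE 72 h replicate 3, where the nearest mouse had 8.635. Probeset 1419390_at had a value of 6.414 in CIE 0 h replicate 67, where the nearest mouse had 5.676. CIE 72 h replicate 3 and CIE 0 h replicate 67 had all 8 members above their group means.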

How the results depend on the processing

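The 32 CIE effects on the members (8 genes at 4 times) were refitted under every alternative, which gave 560 values. Of these 0 passed the adjusted p of 0.01, with a lowest of 0.107 for Rasd2 at 72 h in a fit of only the 2 groups compared. Signs at 0 h and 72 h held throughout, but sizes moved by over 1.5 times when 1 mouse was left out. Without CIE 0 h replicate 67 the 0 h values were 0.30 for Drd1, 0.21 for Drd2, 0.31 for Ppp1r1b, 0.38 for Gpr6, 0.26 for Rgs9, 0.11 for Pde10a and 0.18 for Adcy5, and without Ctrl 0 h replicate 56 that of Pde10a was 0.14. At 72 h Drd1 was at -0.14 without Ctrl 72 h replicate 52 or CIE 72 h replicate 29, -0.13 without CIE 72 h replicate 63, -0.34 without Ctrl 72 h replicate 68 and -0.32 without CIE 72 h replicate 3. Drd2 was at -0.12 without Ctrl 72 h replicate 34, Gpr6 at -0.13 without Ctrl 72 h replicate 52, and Adcy5 at -0.052, -0.040 and -0.13 without Ctrl 72 h replicates 34, 52 and 68. In all, 38 values at 8 h or 7 d reversed, none of a called effect. With array weights Gpr6 was at 0.0073 and Pde10a at 0.0080 at 8 h. With the mean of all probesets of a gene Adcy5 was at 0.017 and Rasd2 at -0.00034 at 8 h, and Pde10a at -0.11 at 7 d. Leaving out 1 mouse gave at 8 h -0.061 to 0.28 for Drd1, -0.26 to 0.0041 for Drd2, -0.34 to 0.0082 for Ppp1r1b, -0.31 to 0.19 for Gpr6, -0.17 to 0.11 for Pde10a and -0.068 to 0.20 for Rasd2. At 7 d it gave -0.052 to 0.39 for Drd1, -0.19 to 0.36 for Ppp1r1b, -0.034 to 0.53 for Gpr6, -0.16 to 0.17 for Rgs9, -0.070 to 0.16 for Pde10a and -0.27 to 0.078 for Rasd2. The median over the 8 members at 7 d was -0.061 without Ctrl 7 d replicate 62 and -0.013 without CIE 7 d replicate 27, and at 8 h it was 0.045 without Ctrl 8 h replicate 58 and 0.028 without CIE 8 h replicate 69.

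The 2 member probesets called over the Ctrl times became 1 to 3 when 1 mouse was left out, with 1 without Ctrl 7 d replicate 36 and 3 without Ctrl 7 d replicate 62. The 1 called over the CIE times became 0 to 1, with 0 for 17 of 22 mice left out, 0 with the trended robust prior and 2 at a threshold of 0.05. The whole-table count at 72 h became 724 with the member mean as a covariate. The causes were not tested. The r of Drd1 with Drd2 ran from 0.82 to 0.89 when 1 mouse was left out. The planned correlation with Adora2a was not run. No paired analysis was possible because no mouse number is shared between groups.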
